A study of Mus musculus with 24 samples.

Results

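Pax6, Six3, Six6, Rax and Lhx2 are the homeobox genes of the eye field, the patch of anterior neural plate from which the retina forms. They were chosen by symbol, and all 5 members were found among the 21779 protein-coding genes of the RefSeq table on assembly GRCm38.p6. The measurements are peak lists from CUT&RUN, in which an antibody brings a nuclease to a chromatin-bound protein and the DNA released there is sequenced. The material was retina of wildtype mice at postnatal day 2 (P2) or 17 (P17), with 600000 nuclei in each reaction. Antibodies were to SOX8 (4 libraries per age, from 2 antibodies), to SOX9, H3K4me3 or H3K27ac (2 libraries each per age), or nonspecific IgG (2 libraries per age, not analysed here). Strain, pooling of animals and any cell sorting were not given in the sources used here.

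Eye-field factors switch each other on in the optic vesicle and are later kept in dividing retinal progenitors. In the mature retina they persist in subsets of cells. Pax6 is kept in amacrine, ganglion and horizontal cells, while Lhx2 and Rax are known in Müller glia, the chief glial cell type there. SOX8 and SOX9 are SoxE transcription factors, and SOX9 is present in progenitors and then in Müller glia. The histone mark H3K4me3 is found at promoters in use, and H3K27ac at such promoters and at enhancers.

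There were 8 lists, 1 for each of 4 targets at 2 ages, with no column per library, and how the libraries behind a list were combined is not given in the sources used here. No value per replicate was analysed, so no error between libraries and no test of a difference could be given. Every comparison below is therefore between lists as deposited. The lists give only the position of each peak, so width was the only size of a peak. Read depth is unknown, and the lists differ in length: 2653 P2 SOX8, 2400 P17 SOX8, 5476 P2 SOX9, 2855 P17 SOX9, 9134 P2 H3K4me3, 9629 P17 H3K4me3, 287845 P2 H3K27ac and 29909 P17 H3K27ac peaks. The lists do not separate the cells of the retina, so fewer cells with a protein at a site and less of it per cell cannot be told apart. H3K4me3 within 1 kb of a gene end was found at 7 of 12 markers of retinal neurons and glia at P2 and 8 of 12 at P17. It lay at 2 of 6 pigment epithelium, 1 of 6 lens, 1 of 6 blood and immune, 0 of 6 vessel and 1 of 6 muscle and liver markers, with the same counts at both ages. The share of all genes at 1 kb was not computed, and within 5 kb of the gene it was 49.5% at P2 and 51.1% at P17. The marker counts are therefore a description only.

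The RefSeq promoter table on GRCm38.p6 held windows for 4 of the 5 members, all but Rax. The 250 bases before 5 annotated starts are shown because those starts lay inside SOX9 peaks, and each stretch ends 1 base before its start. All are on the plus strand and written 5′ to 3′. Capitals mark the 1 match to the searched SOX motifs.
Pax6 upstream start, chr2:105668646-105668895: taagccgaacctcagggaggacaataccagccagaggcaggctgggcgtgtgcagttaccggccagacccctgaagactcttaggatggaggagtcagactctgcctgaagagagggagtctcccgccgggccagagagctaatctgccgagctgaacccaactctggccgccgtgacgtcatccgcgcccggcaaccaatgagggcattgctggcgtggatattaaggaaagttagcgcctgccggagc
Pax6 downstream start, chr2:105682213-105682462: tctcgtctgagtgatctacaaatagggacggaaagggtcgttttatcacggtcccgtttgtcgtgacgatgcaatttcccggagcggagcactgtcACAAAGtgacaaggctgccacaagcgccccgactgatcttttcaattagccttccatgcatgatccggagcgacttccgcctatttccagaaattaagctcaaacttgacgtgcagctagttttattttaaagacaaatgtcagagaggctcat
Six3, chr17:85620584-85620833: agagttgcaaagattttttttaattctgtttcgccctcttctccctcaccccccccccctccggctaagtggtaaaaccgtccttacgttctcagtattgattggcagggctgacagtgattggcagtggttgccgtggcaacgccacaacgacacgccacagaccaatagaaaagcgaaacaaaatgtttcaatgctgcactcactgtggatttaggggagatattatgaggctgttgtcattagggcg
Six6, chr12:72939632-72939881: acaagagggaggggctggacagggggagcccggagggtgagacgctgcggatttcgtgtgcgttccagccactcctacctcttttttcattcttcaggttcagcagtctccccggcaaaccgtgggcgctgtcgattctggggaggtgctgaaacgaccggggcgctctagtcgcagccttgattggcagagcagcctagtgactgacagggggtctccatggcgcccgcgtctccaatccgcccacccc
Lhx2 downstream start, chr2:38351058-38351307: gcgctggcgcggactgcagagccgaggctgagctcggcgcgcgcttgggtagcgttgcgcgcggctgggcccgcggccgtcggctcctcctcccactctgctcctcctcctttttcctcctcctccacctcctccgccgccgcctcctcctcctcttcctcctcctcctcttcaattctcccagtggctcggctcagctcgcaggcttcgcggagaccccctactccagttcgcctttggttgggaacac

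Each window was searched on both strands for 3 motifs found in SOX binding sites, which are ACAAAG, then the variant ACAATG, and lastly the shifted form AACAAT. The homeodomain core TAATTA was searched in the same way. ACAAAG was found once, with its first base 154 bases before the downstream Pax6 start. No other match lay in these windows or before the upstream Lhx2 start. Of all 32851 windows of this length in the table, 16.5% held ACAAAG, 10.7% ACAATG, 9.42% AACAAT and 4.84% TAATTA, and 29.6% held at least 1 of the 3 SOX motifs. ACAATG and AACAAT can overlap in the same bases. The absence of these letters says nothing of SOX binding in the peaks, which reach far beyond 250 bases. The G and C content was 60.8% before the upstream and 47.6% before the downstream Pax6 start, 48.8% at Six3, 62.8% at Six6 and 68.4% before the downstream Lhx2 start, against a median of 52.4% over all windows. CpG dinucleotides numbered 15, 15, 10, 17 and 24 in the same order, against a median of 6.

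At P2 all 5 members had both a SOX8 and a SOX9 peak within 5 kb of the gene. Among all protein-coding genes 15.2% had a P2 SOX8 peak, 27.9% a P2 SOX9 peak and 14.5% both. At P17 SOX9 peaks lay at 4 members, all but Six6, against 15.8% of genes. SOX8 at P17 was found at 1 member, Rax, against 13.1% of genes. Rax was thus the single member with a peak in all 4 SOX lists, as 6.48% of genes were. SOX9 at both ages was found at 4 of 5 members and at 11.5% of genes, and SOX8 at both ages at 1 of 5 members and at 8.12% of genes. Counted only over genes that had the P2 peak, 53.6% had a SOX8 peak also at P17, as 1 of 5 members did, and 41.1% had SOX9 at P17, as 4 of 5 members did.

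Both marks were at all 5 members at P2. H3K4me3 lay within 5 kb of 49.5% of genes at P2 and 51.1% at P17, and H3K27ac of 82.2% at P2, so a P2 H3K27ac peak is common to most genes. At P17 H3K4me3 was still at all 5 members. P17 H3K27ac was at 4 members, all but Lhx2, against 57.3% of genes. At P17, then, Six6 had both marks and no SOX peak, and Lhx2 had SOX9 and H3K4me3 and no H3K27ac.

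Extending the distance to 50 kb added no member to any SOX list. The counts stayed at 5 for P2 SOX8, where 28.9% of genes now had a peak, and 5 for P2 SOX9, where 46.4% did. They were 1 for P17 SOX8 (24.9% of genes) and 4 for P17 SOX9 (28.4% of genes). H3K4me3 was at all 5 members at both ages, with 65.9% of genes at P2 and 67.1% at P17. H3K27ac was at all 5 at P2, with 91.6% of genes, and at all 5 at P17, with 72.3% of genes. SOX peaks were few between 5 and 50 kb: 1 P2 SOX8 peak near Pax6, and 1 P2 and 1 P17 SOX9 peak near Rax. The nearest P17 SOX8 peak was 1870.6 kb from Pax6, 654.8 kb from Six3, 177.7 kb from Six6 and 168.1 kb from Lhx2. The nearest P17 SOX9 peak to Six6 was 106.6 kb away.

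**Figure D1:**
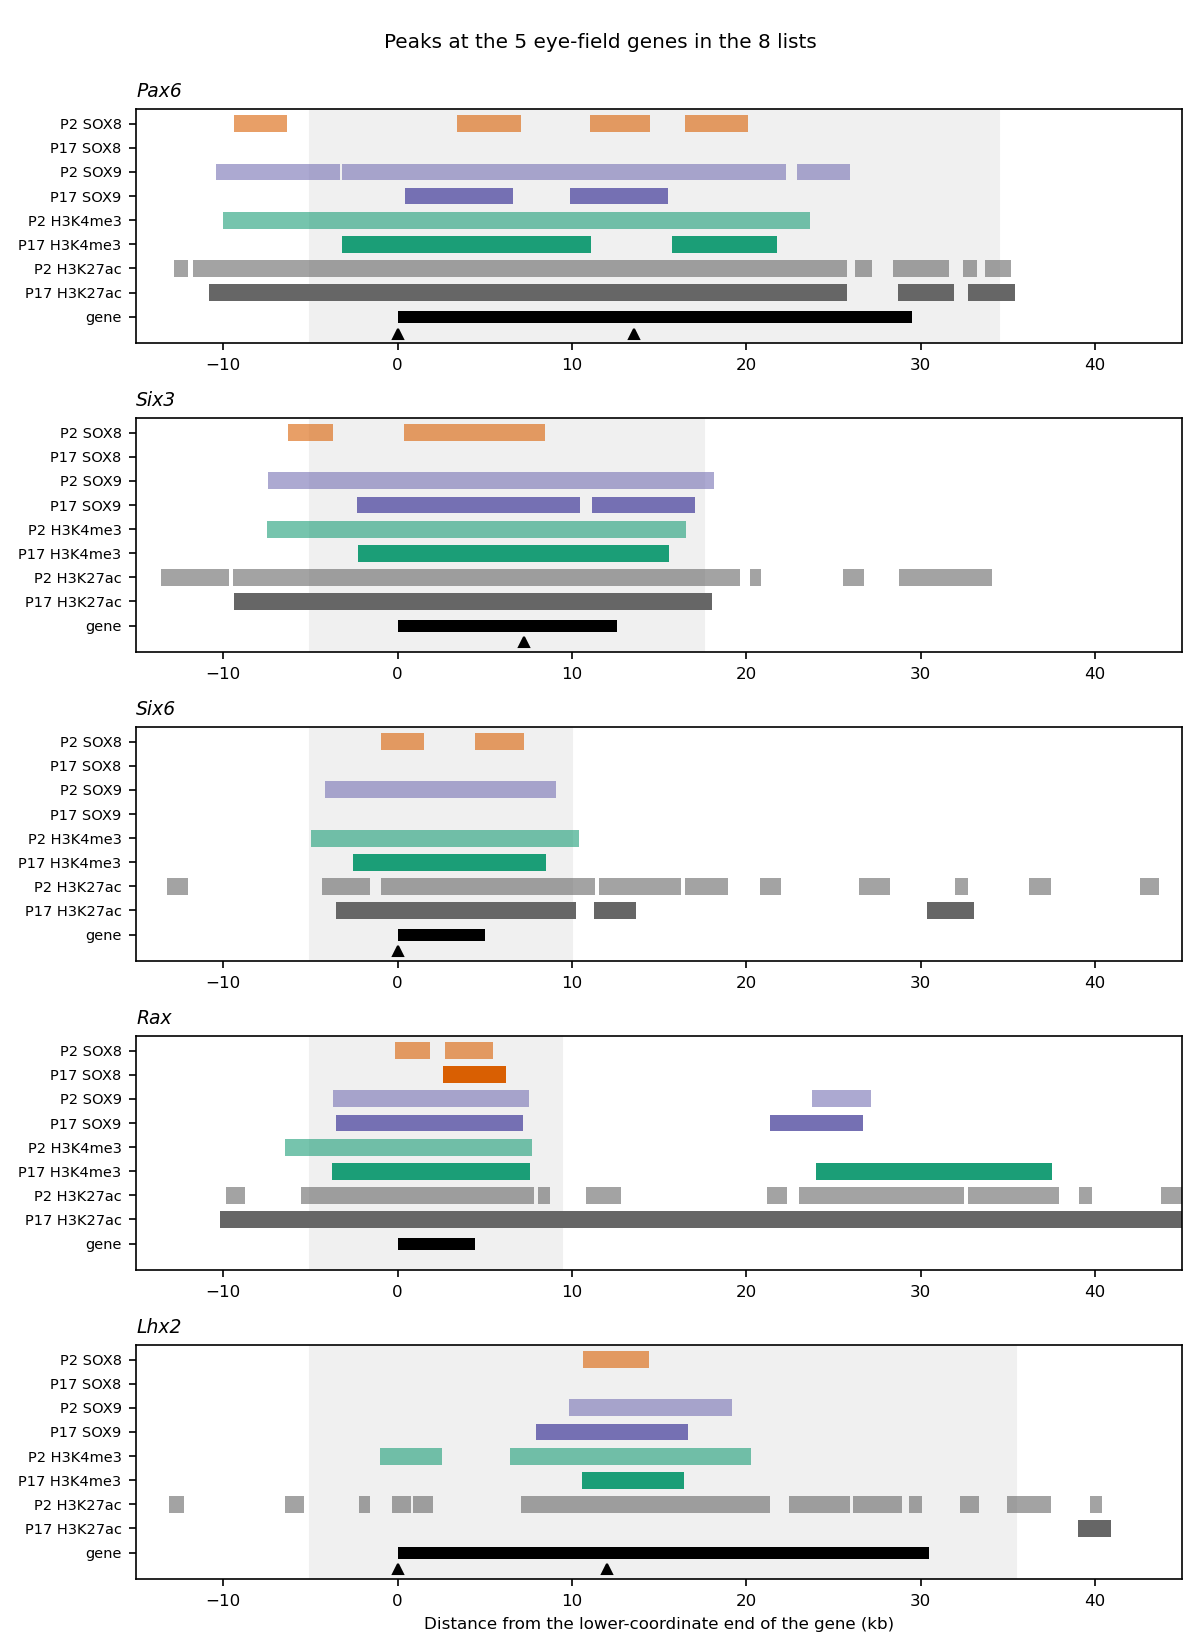
Peaks of the 8 lists at Pax6, Six3, Six6, Rax and Lhx2, drawn to scale against distance in kb from the lower-coordinate end of each gene; the black bar is the gene, triangles are annotated starts, and grey shading is the gene with 5 kb on either side. The P17 SOX8 row is empty except at Rax, the P17 SOX9 row is empty at Six6, and the P17 H3K27ac row has no peak inside the shaded part at Lhx2.

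Pax6 encodes a paired-domain and homeodomain factor that progenitors need to keep their full range of fates (NCBI gene 18508, chr2:105668896-105698410). It carried 4 P2 SOX8 peaks within 50 kb, of 3049, 3669, 3426 and 3605 bp, and 3 of them lay within 5 kb. The first, chr2:105659520-105662568, lay 6328 bp below the gene and overlapped the noncoding RNA gene Paupar. The third, chr2:105679939-105683364, held the downstream start at 105682463, and none held the upstream start at 105668896. The SOX8 peaks were thus separate islands, with gaps of 3982 and 2014 bp between those over the gene.

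SOX9 at P2 lay over most of Pax6, up to 105694856, and the last stretch of the gene had no SOX9 peak. Its peaks were 7113, 25461 and 3038 bp wide, parted by gaps of 115 and 638 bp. The middle peak, chr2:105665720-105691180, was the fourth widest of 5476 and held both starts. At P17 2 SOX9 peaks were left, chr2:105669338-105675496 (6159 bp) and chr2:105678788-105684385 (5598 bp). They lay wholly inside the P2 SOX9 peaks, and 87.5% of the bases of 1 P2 SOX8 peak and 100% of another fell within them. Bases covered by SOX9 within 5 kb of Pax6 went from 30208 to 11757, or 38.9% of the P2 value. Only the second P17 peak held a start, the downstream one.

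H3K4me3 at Pax6 was a single P2 peak of 33680 bp, the second widest of 9134, at chr2:105658872-105692551. At P17 it was in 2 pieces of 14312 and 6052 bp with a gap of 4616 bp, chr2:105680011-105684626. The downstream start lay in that gap. The second P17 SOX9 peak lay over the same stretch, with 21.8% of its bases in P17 H3K4me3 and 100% in P17 H3K27ac. H3K27ac itself was nearly the same at both ages there, with peaks of 37511 bp at P2 and 36586 bp at P17 over both starts. The P2 and P17 H3K27ac peaks at the far end of the gene also overlap Elp4, whose gene runs from 105697320 and meets Pax6, and the antisense gene Pax6os1 overlaps the Pax6 start, so these peaks cannot be given to 1 gene.

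Six3, a homeobox gene of the sine oculis class that represses Wnt signalling in the forebrain and is needed for the retina, spans chr17:85613608-85626191 (NCBI gene 20473). Its P2 SOX8 peaks were 2549 and 8049 bp wide. The wider, chr17:85613993-85622041, was the second widest of all 2653 P2 SOX8 peaks and held the annotated start at 85620834. A single P2 SOX9 peak of 25607 bp, the third widest of 5476, covered 100% of the gene and its 5 kb flanks. The P2 H3K4me3 peak there, 24016 bp and the third widest of 9134, began 26 bp before the SOX9 peak, whose far end lay 1617 bp beyond it. At P17 the SOX9 signal was in 2 peaks of 12813 and 5896 bp with a gap of 678 bp, and the first of them began 55 bp before the P17 H3K4me3 peak of 17834 bp. SOX9 covered 18709 bp of the window at P17, or 82.8% of its P2 coverage. H3K27ac covered the whole window at both ages. The noncoding gene Six3os1 overlaps Six3 and lies under the same peaks, while Six2, 36545 bp away, had none of SOX8, SOX9 or H3K4me3 over the gene at either age.

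Six6, its paralogue of the same class that keeps retinal progenitors dividing, spans chr12:72939882-72944899 (NCBI gene 20476). It had 2 P2 SOX8 peaks, of 2451 bp over the start and 2800 bp over the far end of the gene, parted by 2958 bp. A P2 SOX9 peak of 13245 bp, chr12:72935717-72948961, spanned the gene and ranked 13th of 5476 by width. Neither factor had a P17 peak within 50 kb. H3K4me3 was present at both ages, 15377 bp at P2 and 11071 bp at P17, with the start inside each. H3K27ac lay over the start with 12271 bp at P2 and 13779 bp at P17. Among 3004 genes with both SOX factors at P2 and both marks at P17, 29.7% had, like Six6, no SOX peak at P17, so this state was common.

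Lhx2 encodes a LIM-homeodomain factor that is needed for the optic vesicle and later in Müller glia (NCBI gene 16870, chr2:38339271-38369737). It had 1 P2 SOX8 peak of 3793 bp, 1 P2 SOX9 peak of 9352 bp and 1 P17 SOX9 peak of 8735 bp. All lay over the downstream start at 38351308, and no SOX peak reached the upstream start at 38339281. The P17 SOX9 peak lay nearer the upstream start than the P2 one and was nearly as wide, and 77.8% of it lay in the P2 peak. H3K4me3 was at both starts at P2, with peaks of 3569 and 13844 bp. At P17 a peak of 5852 bp was left at the downstream start. H3K27ac had 9 peaks of 632 to 14297 bp within 5 kb at P2, and none at P17. The nearest P17 H3K27ac peak was 8552 bp beyond the gene and 1901 bp wide. Of 3053 genes with both SOX9 and H3K4me3 at P17, 1.54% lacked P17 H3K27ac within 5 kb, as Lhx2 did. The noncoding gene Gm27197 overlaps Lhx2 and lies under the same SOX peaks.

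Rax, the retina and anterior neural fold homeobox gene without which mice form no eyes, spans chr18:65934639-65939089 (NCBI gene 19434). At P2 it had SOX8 peaks of 1990 and 2780 bp. At P17 a SOX8 peak of 3594 bp, chr18:65937261-65940854, contained the second of them, while the first had no counterpart. SOX9 peaks over Rax were alike at both ages, 11262 bp at P2 and 10712 bp at P17, and the P17 peak lay wholly inside the P2 peak. H3K4me3 peaks measured 14135 and 11360 bp. The P17 SOX9 peak began 241 bp inside the P17 H3K4me3 peak and ended inside it too. Of the 4 members with SOX9 at both ages Rax thus had the SOX9 and H3K4me3 coverage closest to that at P2, at 95.1% and 89.5% of P2.

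A further SOX9 site lay near Rax at both ages, 19335 bp away and 3354 bp wide at P2 (chr18:65958424-65961777), and 16905 bp away and 5361 bp wide at P17 (chr18:65955994-65961354). It lies over Cplx4, which encodes a complexin of retinal ribbon synapses. H3K4me3 was not over Cplx4 at P2. At P17 a peak of 13547 bp, chr18:65958646-65972192, covered most of Cplx4 and 50.5% of the P17 SOX9 peak. A single P17 H3K27ac peak of 61951 bp, chr18:65924454-65986404, ran from below Rax across Cplx4 and into Lman1, where the P2 list had separate peaks. That peak ranked 153rd of 29909 by width, and the H3K27ac value of Rax at P17 cannot be parted from that of its neighbours.

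All 7 P2 SOX9 peaks within 5 kb of the members were wider than the list's median of 2668.5 bp, and 6 were in the widest 10% of the list. All 6 P17 SOX9 peaks were wider than their median of 5336 bp, but 2 were in the widest 10%. Of 10 P2 SOX8 peaks 9 exceeded the median of 2217 bp, the exception being the first peak at Rax, and 5 were in the widest 10%. H3K4me3 peaks at the members were wider than the list median in 6 of 6 cases at each age, with medians of 14756 bp at P2 and 11215.5 bp at P17 against 3542 and 3703 bp for the whole lists. For H3K27ac 11 of 19 peaks at P2 and 4 of 6 at P17 were wider than the list median. In the widest 10% were 6 of the 19 and 4 of the 6. Their medians were 2545 bp at P2 and 20621 bp at P17, against 1166 and 3268 bp for the whole lists. Ranks hold within a list and show no change between lists of different length.

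**Figure D2:**
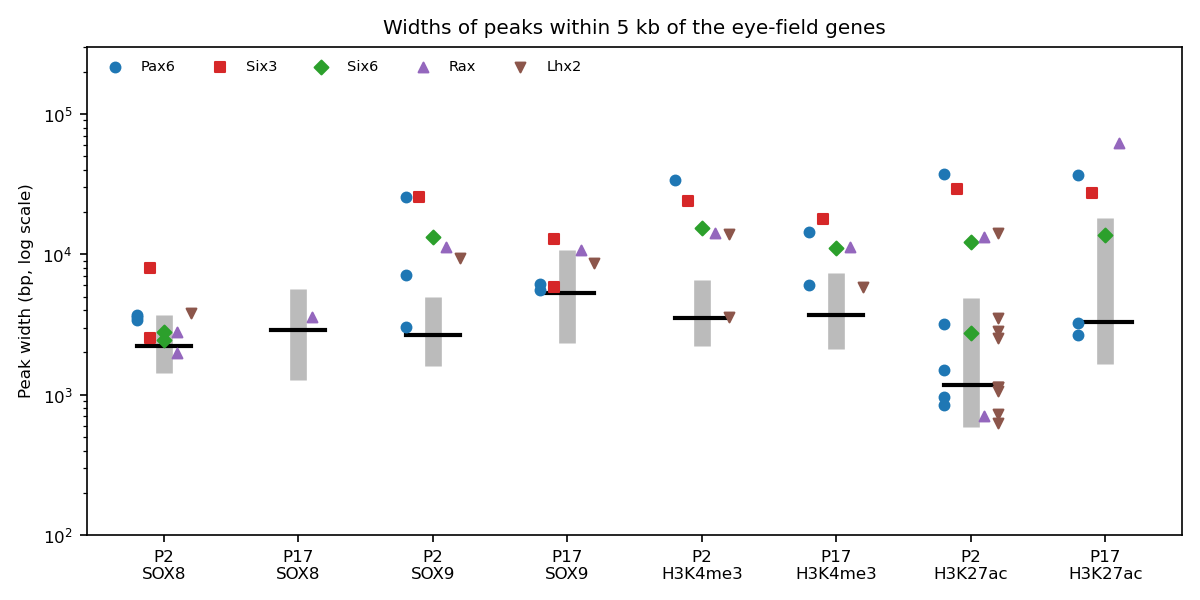
Width in bp on a log axis of every peak within 5 kb of the members, by list, with symbols by gene; the grey bar spans the 5th to 95th percentile of all peaks of the list and the black line is its median. P2 SOX9 peaks lie between 3038 and 25607 bp against a median of 2668.5 bp, and P17 SOX9 peaks between 5598 and 12813 bp against 5336 bp.

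Coverage of the gene and its 5 kb flanks shows how the members differ among themselves. At P2 SOX9 covered 100% at Six3, 88.2% at Six6, 77.9% at Rax, 76.4% at Pax6 and 23.1% at Lhx2, where genes with a peak had a median of 7.16%. P2 SOX8 followed the same order, with 41.3% at Six3, 35% at Six6, 33% at Rax, 27.1% at Pax6 and 9.37% at Lhx2, against a median of 6.14%. At P17 SOX9 covered 82.8% at Six3, 74.1% at Rax, 29.8% at Pax6 and 21.6% at Lhx2, against a median of 16.2%. P17 SOX8 covered 24.9% at Rax, against 9.58%. Lhx2 had the lowest share of the 5 members in each list but P17 SOX9, where Six6 was at 0, and P17 SOX8, where all members but Rax were at 0. The windows of Pax6 and Lhx2 are the longest, 39515 and 40467 bp, and those of Rax and Six6 the shortest, 14451 and 15018 bp, so a share also depends on gene length.

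H3K4me3 coverage within 5 kb was lower at P17 than at P2 at all 5 members, where 41.2% of 10043 genes with a peak at both ages had a lower value. The bases covered went from 28656 to 20364 at Pax6, from 21553 to 17834 at Six3, from 15011 to 11071 at Six6, from 12693 to 11360 at Rax and from 17413 to 5852 at Lhx2. As a share of P2 the values were 71.1%, 82.7%, 73.8%, 89.5% and 33.6%, against a median of 105% over all such genes. P2 H3K4me3 covered 100% of the window of Six6 and 95.4% of that of Six3, so their ratios had little or no room above 100% and their direction is read with that limit. Lhx2 had 43.0% of its window covered at P2, and 0.548% of genes had a lower ratio.

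SOX9 coverage was also lower at P17 at the 4 members with a peak at both ages, at 38.9% of P2 for Pax6, 82.8% for Six3, 95.1% for Rax and 93.4% for Lhx2. Over all 2494 genes with SOX9 at both ages 26.7% were lower, and the median was 137% of P2. A lower ratio was found at 2.61% of these genes for Pax6, 15.5% for Six3, 23.3% for Rax and 22.2% for Lhx2. P2 SOX9 already covered 100% of the window of Six3, 77.9% of that of Rax and 76.4% of that of Pax6, so these ratios could not reach the median of 137%, and nothing is read from their place below it. Lhx2 had 23.1% of its window covered at P2, so its ratio did have room to reach that median. For H3K27ac 2 of the 4 members with a peak at both ages were lower, Pax6 at 97.7% and Six6 at 98.8%, while Six3 was at 100% and Rax at 107%. Over all genes 65.3% were lower and the median was 69.8%. H3K27ac windows of these 4 members were at least 90% covered at each age, so their ratio could hardly exceed 100%.

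**Figure D3:**
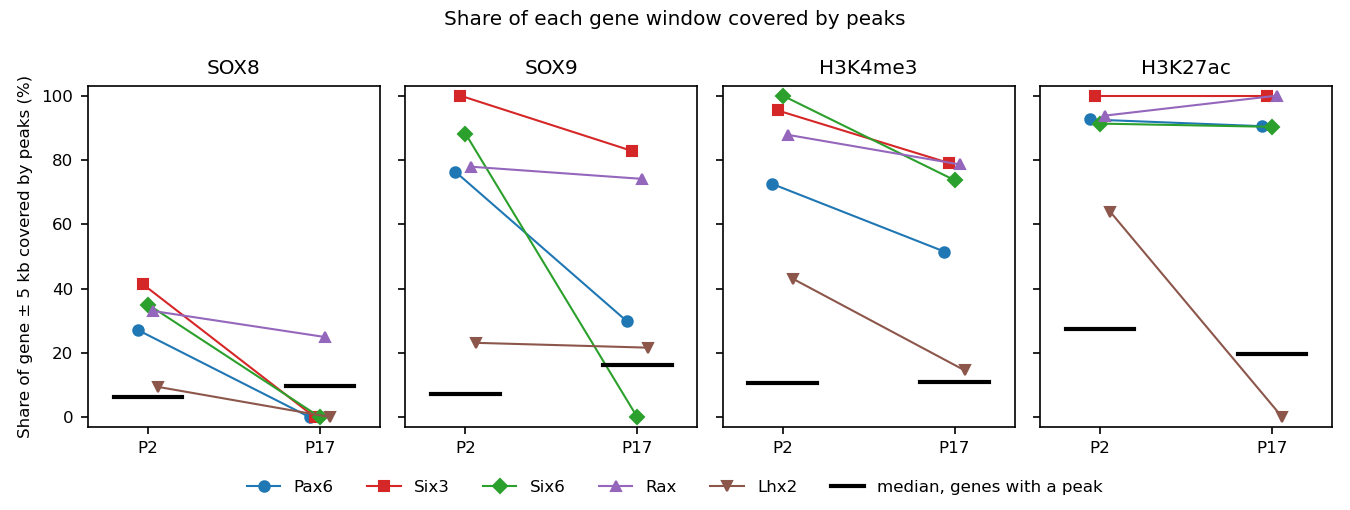
Share of each gene with its 5 kb flanks covered by peaks, in percent, at P2 and P17 for SOX8, SOX9, H3K4me3 and H3K27ac; each line is a gene and black bars mark the median of all protein-coding genes with a peak in that list. SOX8 ends at 0 for all genes but Rax, SOX9 ends at 0 for Six6, and H3K27ac ends at 0 for Lhx2.

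SOX and H3K4me3 peaks were then compared base by base within 5 kb of each gene. At P2 the bases that SOX9 and H3K4me3 shared made up 95.4% of the bases in either at Six3, 90.1% at Pax6, 88.7% at Rax, 88.2% at Six6 and 53.7% at Lhx2. The median over 5750 genes with both was 55.3%, and 96.1% to 99% of those genes had a lower share than Pax6, Six3, Six6 and Rax. These shares are bounded by the window, which H3K4me3 or SOX9 nearly filled: SOX9 covered all of it at Six3 and H3K4me3 all of it at Six6. The peaks' own ends differed more, since the P2 SOX9 peak at Rax began 2730 bp inside the H3K4me3 peak. At Pax6 there were 3 SOX9 peaks over 1 H3K4me3 peak, and the last ended 2305 bp beyond it. All P2 SOX8 bases at each member lay in P2 H3K4me3, as was also the median over genes, and in P2 SOX9. SOX8 and H3K4me3 shared 21.8% to 43.2% of bases in either, under the median of 46.5%: SOX8 covered only a part of the broad H3K4me3 peaks. SOX8 likewise shared 35.4% to 42.4% of bases with SOX9 at the 5 members, against a median of 70.9% over 3164 genes.

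At P17 the share of SOX9 and H3K4me3 was 94.3% at Rax, 88.5% at Six3, 67% at Lhx2 and 29.8% at Pax6, with a median of 49% over 3053 genes. Rax and Six3 thus had a high share at both ages, and Pax6 a high share at P2 and a low one at P17. H3K27ac covered 100% of P17 SOX9 bases at Pax6, Six3 and Rax, against a median of 96.4% over 3230 genes with both. P17 H3K27ac filled the whole window at Six3 and Rax, so the value at these genes could not have been lower. At Lhx2 H3K27ac covered none. Peak width and list length also differ between the ages, and their part in these shares was not tested. No IgG peak list was used, so no background measured in the same way can be set beside them.

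**Figure D4:**
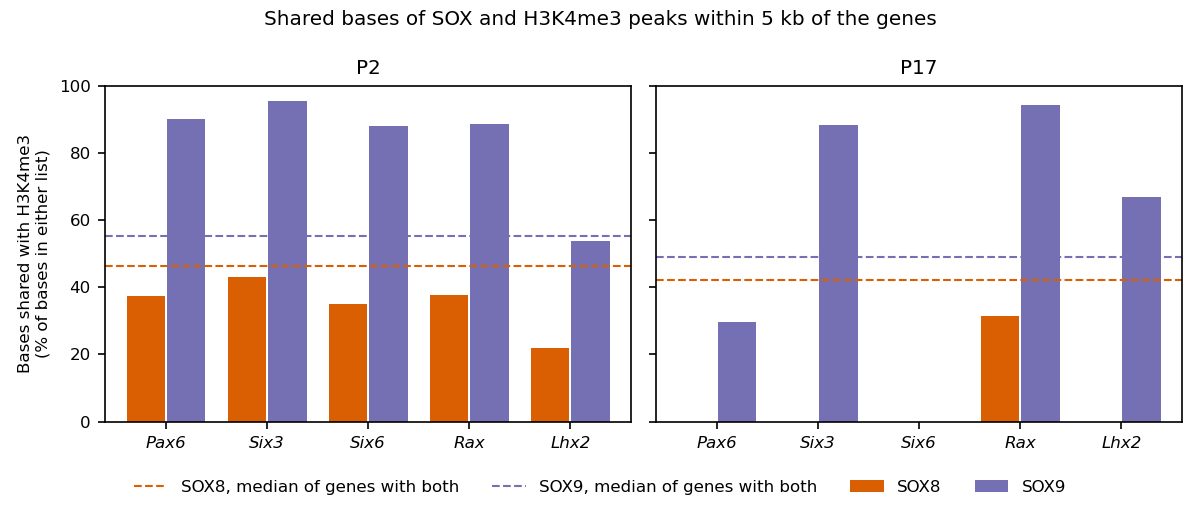
Bases shared by SOX8 or SOX9 and H3K4me3 peaks of the same age as a percentage of the bases in either, within 5 kb of each gene; dashed lines are medians over all genes with both, and a missing bar means no SOX peak. SOX9 exceeds 88% at Six3, Six6, Rax and Pax6 at P2 and at Six3 and Rax at P17.

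The annotated starts of the 4 members with promoter windows numbered 6. P2 SOX9 peaks lay over 5 of them and P2 SOX8 peaks over 4, where 16.8% and 9.07% of all 32851 starts in the table were covered. At P17 SOX9 lay over 3, those of Six3 and the downstream starts of Pax6 and Lhx2, against 8.16% of starts. P17 SOX8 lay over none, against 6.43%. H3K4me3 lay over all 6 at P2 and over 4 at P17, against 32.3% and 33.3%. The 2 starts that lacked P17 H3K4me3 were the downstream one of Pax6 and the upstream one of Lhx2. The first of these was under P17 SOX9 and the second was not under SOX8 or SOX9 at either age.

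Other genes of the network were counted from lists written with earlier results of these data known. Of 15 eye-field and optic cup partners 11 had SOX9 and 6 had SOX8 within 5 kb at P2, and 4 had SOX9 and 2 had SOX8 at P17. Over all genes the shares were 27.9% and 15.2% at P2 and 15.8% and 13.1% at P17, so the P17 SOX8 count was near that of genes in general. The 11 with P2 SOX9 were the same 11 that had P2 H3K4me3, but of all 6073 genes with P2 SOX9, 5750 had it too. Meis1, a TALE homeobox gene, was the partner with a peak in all 4 SOX lists, and its P2 SOX9 peak of 15172 bp ranked eighth of 5476. Otx2 (12727 bp covered at P2, 5195 at P17), Meis2 (6199 and 4787 bp) and Vax2 (5265 and 7531 bp) had SOX9 at both ages. The other 7 had SOX9 at P2 and not at P17. Of all 6073 genes with P2 SOX9, 41.1% had it also at P17, so 4 of 11 partners was near the share of genes in general. Sox2 (6176 bp) and Hes1 (6319 bp) were among the 7 and were picked out after their values were seen, so no theme is read from them. Mitf, Eya1 and Eya2 had no SOX peak, and Pax2 had a P17 SOX8 peak of 4383 bp alone.

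Paralogues of the members were counted in the same way. Of 4 other sine oculis class genes 1, Six5, had SOX peaks, and it had them in all 4 lists. Of 8 other PAX genes none had a SOX9 peak, and Pax2 was the only 1 with a SOX8 peak. Of 11 other LIM-homeobox genes none had SOX8, Lhx1 and Lhx4 had SOX9 at P2, and Lhx5, Isl2 and Lmx1b had SOX9 at P17. Against 27.9% of all genes with SOX9 at P2 and 15.8% at P17, counts in lists this short are given as a description only. The widest of these was at Lmx1b, 8405 bp. H3K4me3 lay at 0 of 8 PAX genes at both ages, at 3 of 11 LIM-homeobox genes at each age, and at 3 of 4 sine oculis class genes at P2 and 2 of 4 at P17, against 49.5% of all genes at P2 and 51.1% at P17. Lhx5, Isl2 and Lmx1b had no H3K4me3 peak at P17 within 5 kb, while the 4 members with P17 SOX9 all did. Of all 3445 genes with P17 SOX9, 3053 also had P17 H3K4me3, so in this the members were like most such genes.

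Genes with the most similar pattern were those with the smallest mean absolute difference in covered share over the 8 lists. The nearest to Pax6 were Irf2bp2 (8.94 percentage points), Zfp36l2 (10 points) and Ptma (11 points). The nearest to Six3 were Tbx2 (7.43), Rax (9.75) and Irf2bp2 (14.8), so Rax was the second nearest of all genes to Six3. Six6 was nearest to Mab21l2 (7.78), Skida1 (9.27) and Irf2bp2 (12.0), and Rax to Mab21l1 (8.56), Six3 (9.75) and Midn (10.1). Lhx2 was nearest to Mmp14 (6.03), Irs2 (6.81) and Nr2e1 (7.03). The measure joins SOX and mark lists, so a near gene need not share the SOX peaks. Irf2bp2, Zfp36l2 and Ptma had peaks in the same SOX lists as Pax6, as Midn did with Rax and Irs2 with Lhx2. Mab21l2, Skida1 and Mab21l1 had no P2 SOX8, which covered 35% at Six6 and 33% at Rax. Tbx2 and Rax had P17 SOX8 and Six3 did not. Mmp14 and Nr2e1 lacked the P17 SOX9 that Lhx2 had. Between members the difference ran from 9.75 points for Six3 and Rax to 52.9 points for Six3 and Lhx2.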

How the data were processed

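CUT&RUN libraries from mouse retina were made at P2 and P17, 24 in all, of which 20 had a target antibody. The deposited files are peak lists with start and end in bp and a score that is 0 in every peak. The submitters' processing notes name Bowtie2, SEACR and the build GRCm38, with no role, version or order. The peak threshold, the use of IgG and how the authors combined libraries are not given in the sources used here.

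Starts are counted from 1. Genes came from a RefSeq table (GRCm38.p6), without rows placed on loose scaffolds. A gene had a peak when 1 bp or more of a peak overlapped the gene or 5 kb (second distance 50 kb) on either side. Covered bases were counted once. Members and gene lists were chosen with earlier results of these data known, and no test was made. Genes named were the members, neighbours within 50 kb, the 3 most similar genes of each member, and network genes with a SOX peak at both ages or the widest SOX peak of a gene list. Others were named after their values were seen. Counting was checked on simulated data. Software was Python 3.11.15, numpy 2.4.6, pandas 2.3.3 and matplotlib 3.10.9.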

Additional observations from a re-analysis of the deposited data

How the results depend on the processing

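The number of members with a peak stayed within 1.5 times its value in 48 of 48 alternatives: 50 kb flanks, the gene alone, peak centres, the wider 50% of each list, lists of equal number by width, and peaks trimmed to 500 bp. With so few members this limit is loose: P17 H3K27ac had 4 members, 5 with 50 kb flanks and 3 with peak centres or trimmed peaks. The number of peaks stayed within 1.5 times its value in 43 of 48. For P2 H3K27ac, 19 peaks became 86 with 50 kb flanks, 12 with the gene alone, 11 with the wider 50% and 6 with lists of equal number, and for P17 H3K27ac 6 became 11 with 50 kb flanks. The change with age in members with H3K27ac was -1, and became 0 with 50 kb flanks and -2 with peak centres or trimmed peaks. The changes for SOX8 (-4), SOX9 (-1) and H3K4me3 (0) were the same in each alternative. Over genes of every type the share with a peak was lower, for example 16.4% for P2 SOX9, and 6 of 16 such shares moved beyond 1.5 times. The width rank of the widest peak at a member did not move in any list when only peaks within 5 kb of a gene were ranked. Ranks were compared with a binomial interval around the main value, not with the 1.5 times limit. All 19 moves among the 50 rank alternatives came from ranking covered bases among genes with a peak, which is a different measure from peak width. Ranked by covered bases among genes with a peak, Pax6 P17 SOX9 went from 65.1% to 92.2% and Lhx2 P17 H3K4me3 from 88.4% to 78.3%. No paired analysis was possible because the lists carry no replicate number. Unknown read depth limits what a missing peak can mean.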
